A study of Danio rerio with 4 samples.

Results

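The genes marcksl1a (ENSDARG00000039034) and marcksl1b (ENSDARG00000035715) are 2 of the 32434 zebrafish gene rows in a count table of endothelial cells from the posterior cardinal vein, which drains the trunk of the embryo. They were taken by identifier, and were chosen by their ventral against dorsal fold: both were among the 6 of 1399 tested genes (0.429% called) that an earlier reading of these counts had found higher in cells from the ventral side of the vein. Their ventral against dorsal values are therefore given as a description, with no test. Embryos of the strain Tg(fli1:gal4;uasKaede) were used at 24 hours post fertilization. In this strain the endothelial promoter fli1 drives, through Gal4, the green protein Kaede, which light turns red. Red cells were sorted after conversion of the ventral side (2 libraries, ventral 1 and 2) or the dorsal side of the vein (2 libraries, dorsal 1 and 2). Each group held 6 embryos, so every library is a pool, and all 4 share the stage and the transgene. Whether the libraries of a side were made from separate pools of embryos is not in the labels, so their spread may be technical.

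MARCKS proteins are substrates of protein kinase C that sit on the inner face of the plasma membrane. A fatty acid, myristate, on the first residue after the start and a short basic stretch called the effector domain hold them there. The effector domain binds the membrane lipid PIP2, calmodulin and actin filaments, and phosphorylation by protein kinase C or binding of calmodulin releases the protein from the membrane. MARCKSL1, the smaller relative of MARCKS, is present in zebrafish as the copies marcksl1a and marcksl1b. In zebrafish embryos both act in endothelial cells, where they shape the cell cortex and the calibre of growing vessels. RefSeq (assembly GRCz12tu) lists each of the names marcksl1a and marcksl1b also as a synonym of the other gene, so the identifiers above, and not the suffixes, fix which gene is meant.

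RNA was counted by CEL-Seq, which primes at the 3' end and tags each molecule with a short random identifier. A transcript gives about 1 tag whatever its length, so counts of the paralogues are compared without division by length. Gene counts totalled 51376 to 115876 per library, with dorsal 2 the shallowest, and levels are given as CPM, counts per 1000000 gene counts. Over genes above a minimum count, the libraries of a side differed by more than counting error. The chi-square per degree of freedom was 1.94 in ventral (2689 genes) and 3.06 in dorsal libraries (2305 genes). These genes include 9 near the highest count the table holds. Their near-equal counts at unequal depth raise both values, by an amount that was not computed. Of 24 matched rows of pan-endothelial genes 22 had a count, but several defining ones were near 0: the junction gene cdh5 gave 2 and 1 counts in the ventral libraries, against 4 and 0 in the dorsal ones, and ERG and robo4 gave 0 everywhere. A count of 0 allows 25.9 to 58.4 CPM per library. The endothelial sum was 1849 ± 72.2 CPM in ventral and 679 ± 57.7 CPM in dorsal libraries (SD, n = 2 each). Of the 24 rows 5 were tested, all 5 with a log2 fold, ventral over dorsal, above 0. Their median was 1.60, and 46.1% of all tested genes were above 0. None of the 5 passed edgeR's test. All 5 had an unadjusted p under 0.05, as had 7.51% of all genes with a higher ventral level. A gene was tested only if counted well enough in at least 2 libraries. For etsrp, DUSP5, she and CLDN5 only the ventral libraries reached that level. The signs, median and unadjusted p of the 5 were thus partly set by which genes passed. In such pooled samples fewer cells of a type and less RNA per cell cannot be told apart.

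Both paralogues were abundant in the ventral libraries and lower in the dorsal ones, and marcksl1a was the more abundant copy throughout. The gene marcksl1a gave 90 and 80 counts in ventral 1 and 2, against 40 and 14 counts in dorsal 1 and 2. These correspond to 830 and 1006 CPM in the ventral libraries, against 345 and 273 CPM in the dorsal ones. Each ventral library thus lay above each dorsal one. The mean level was 918 ± 124 CPM on the ventral side and 309 ± 51.4 CPM on the dorsal side (SD, n = 2 each).

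The gene marcksl1b gave 47 and 37 counts in ventral 1 and 2, against 11 and 4 counts in dorsal 1 and 2. In CPM these are 434 and 465 in the ventral libraries, against 94.9 and 77.9 in the dorsal libraries. Here too the sides did not overlap, and the ventral libraries lay closer to each other than for marcksl1a. How many of all genes separate by side, as both copies did, was not counted, and the pair was chosen on this contrast. The mean level was 449 ± 22.4 CPM on the ventral side and 86.4 ± 12.1 CPM on the dorsal side (SD, n = 2 each). The dorsal values rest on few molecules: the 4 counts in dorsal 2 have a 95% Poisson interval of 21.2 to 199 CPM, which covers counting error only.

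**Figure D1:**
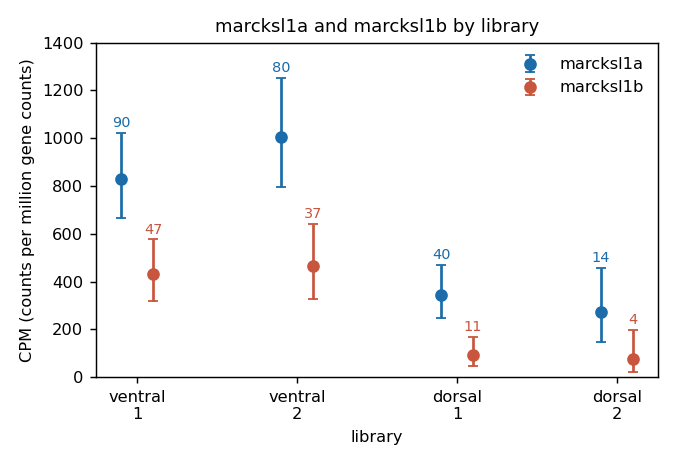
Level of marcksl1a and marcksl1b (CPM, counts per 1000000 gene counts, linear axis) in each library, with 95% Poisson intervals as bars and the raw count above each bar. The ventral libraries hold 830 and 1006 CPM of marcksl1a and 434 and 465 CPM of marcksl1b, above the dorsal libraries for each gene, and marcksl1a exceeds marcksl1b in all 4 libraries.

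Ordered by level, marcksl1a ran ventral 2, ventral 1, dorsal 1, dorsal 2, and marcksl1b had the same order. Neighbours within a side were not resolved by an exact binomial test of the counts given the library totals, added after the values had been seen. For marcksl1a the 2-sided p was 0.215 between the ventral and 0.555 between the dorsal libraries (0.86 and 0.989 when adjusted over the 4 such tests). For marcksl1b it was 0.742 and 1 (adjusted 0.989 and 1). The ratio of library 2 to library 1 was 1.21 in ventral and 0.789 in dorsal libraries for marcksl1a, and 1.07 and 0.82 for marcksl1b. With so few dorsal counts a difference between the dorsal libraries was hardly detectable.

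Among the genes with a count in a library, marcksl1a ranked 183 of 9009 and 165 of 7810 in ventral 1 and 2, against 410 of 8376 and 443 of 6272 in dorsal 1 and 2. It thus had more counts than 98% and 97.9% of detected genes in the ventral libraries and than 95% and 92.4% in the dorsal ones. The gene marcksl1b ranked 318 and 281 in ventral 1 and 2, and 1460 and 1484 in dorsal 1 and 2. Ranks need no scaling between libraries, but libraries of unequal depth detect unequal numbers of genes.

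The edgeR fit over all 1399 tested genes put the log2 fold, ventral over dorsal, at 1.54 ± 0.23 (SE) for marcksl1a and at 2.33 ± 0.35 for marcksl1b. As folds these are 2.9 (2.11 to 4.0 at 2 SE) and 5.04 (3.11 to 8.16). By size of fold marcksl1b was 13th and marcksl1a 41st of the 1399 genes, whose median log2 fold was -0.03. Dividing single libraries, marcksl1a was 2.41 to 3.69 times as high in a ventral as in a dorsal library, and marcksl1b 4.57 to 5.98 times, over all 4 combinations. The ranges of the copies do not overlap, although each ventral library enters 2 of the ratios.

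**Figure D2:**
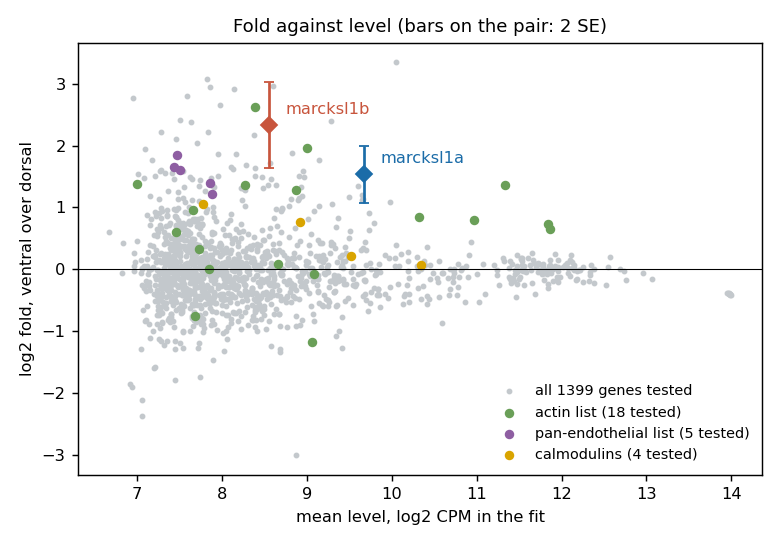
Log2 fold, ventral over dorsal, against mean level (log2 CPM in the fit) for the 1399 genes tested, with the pair drawn as diamonds (bars: 2 SE) and genes of 3 lists in colour. At their level both paralogues lie at the upper edge of the cloud, at 1.54 for marcksl1a and 2.33 for marcksl1b, and the actin list spreads from below 0 to above marcksl1b.

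The ratio of the copies needs no scaling between libraries. Of all counts of the pair, marcksl1b made up 34.3% in ventral 1 (95% exact binomial interval 26.4 to 42.9) and 31.6% in ventral 2 (23.3 to 40.9). In dorsal 1 it made up 21.6% (11.3 to 35.3) and in dorsal 2 it made up 22.2% (6.41 to 47.6). Every library had more marcksl1a than marcksl1b, and each interval lay below an equal share. Both ventral shares stood above both dorsal shares.

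Libraries of the same side gave close shares, 33 ± 1.9% on the ventral and 21.9 ± 0.462% on the dorsal side (SD, n = 2 each). The binomial intervals of the single libraries are far wider than these SDs, which therefore do not measure the error of a share. A difference between replicates was not resolved: Fisher's exact test, 2-sided, gave p = 0.689 between the ventral and p = 1 between the dorsal libraries (adjusted over both tests, 1 and 1). Summed over a side, marcksl1b held 84 of 254 counts in the ventral libraries, or 33.1% (27.3 to 39.2), and 15 of 69 in the dorsal libraries, or 21.7% (12.7 to 33.3). These intervals overlap. The share was 11.3 percentage points higher on the ventral side, and there were 2.02 marcksl1a counts per marcksl1b count in ventral against 3.6 in dorsal libraries.

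**Figure D3:**
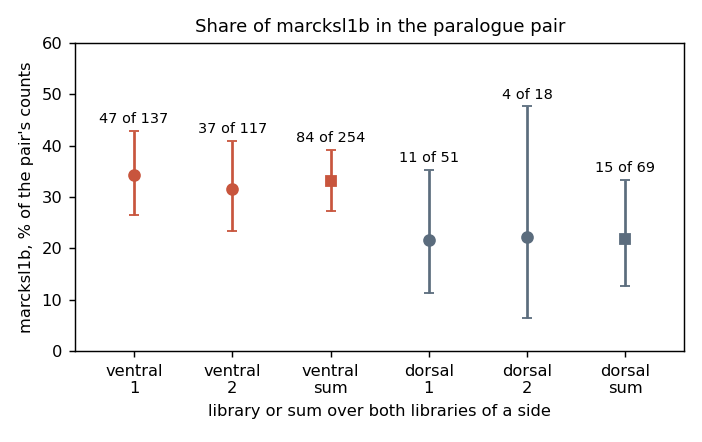
Share of marcksl1b in the counts of the pair (percent, linear axis from 0) per library (circles) and summed over a side (squares), with 95% exact binomial intervals and the counts above each bar. The ventral shares, 34.3% and 31.6%, stand above the dorsal shares, 21.6% and 22.2%, and the intervals of the sums, 27.3 to 39.2 and 12.7 to 33.3, overlap.

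The same contrast in the fit was a difference of the log2 folds, marcksl1b minus marcksl1a, of 0.80 ± 0.42 (SE, taking the genes as independent). As a ratio of folds it was 1.74, with an interval of 0.974 to 3.1 at 2 SE that includes 1. A larger ventral bias of marcksl1b was thus seen in every pairing of libraries but was not resolved from an equal bias at this depth.

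Since endothelial transcripts as a group were also higher in the ventral libraries, the levels were set beside other denominators. Per 100 pan-endothelial counts, marcksl1a gave 43.7 and 55.9 in ventral 1 and 2, against 54.1 and 37.8 in dorsal 1 and 2. On this scale the sides overlapped, with means of 49.8 ± 8.67 in ventral and 45.9 ± 11.5 in dorsal libraries (SD, n = 2 each). The gene marcksl1b gave 22.8 and 25.9 in ventral 1 and 2, against 14.9 and 10.8 in dorsal 1 and 2. Its sides did not overlap, with means of 24.3 ± 2.16 in ventral and 12.8 ± 2.87 in dorsal libraries (SD, n = 2 each).

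In the fit scaled to the pan-endothelial sum the log2 fold was 0.08 ± 0.40 (SE) for marcksl1a and 0.86 ± 0.51 for marcksl1b, while the median of all genes moved to -1.49. The interval of each at 2 SE includes 0. That sum rests on 206 and 143 counts in ventral and 74 and 37 counts in dorsal libraries. Relative to the median of all genes the folds stay as before, since such a scaling shifts all genes alike.

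Per 100 counts of the cytoplasmic actin genes actb1 and actb2, marcksl1a gave 11.2 and 14.5 in the ventral libraries, against 7.98 and 6.09 in the dorsal ones. The gene marcksl1b gave 5.85 and 6.73 in the ventral libraries, against 2.2 and 1.74 in the dorsal ones. On this scale the sides did not overlap for either copy. Per 1000 counts of the ERCC spike-ins, synthetic RNAs added at extraction, marcksl1a gave 9.29 and 9.73 in ventral libraries, against 4.32 and 1.28 in dorsal libraries. The gene marcksl1b gave 4.85 and 4.5 in ventral libraries, against 1.19 and 0.365 in dorsal libraries. Both copies were higher in the ventral libraries on the spike-in scale too, with dorsal 2 the lowest. The most abundant spike-ins lie near the ceiling of the counts, so this scale is approximate. In the fit scaled to the spike-ins the log2 fold of marcksl1a, 1.77 ± 1.24 (SE), was not resolved from 0 at 2 SE.

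**Figure D4:**
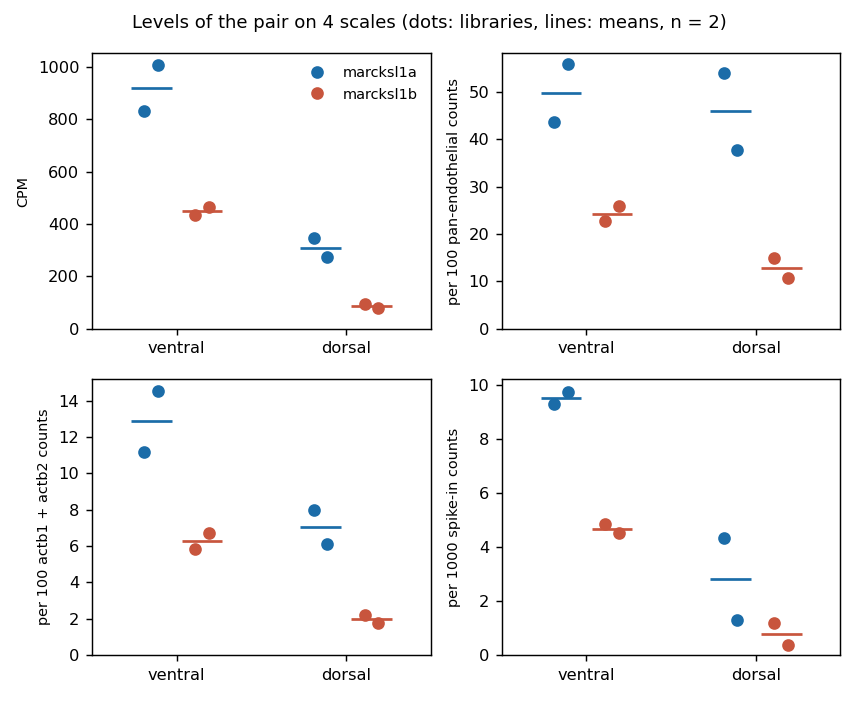
Levels of marcksl1a and marcksl1b in ventral (left) and dorsal (right) libraries as CPM, per 100 pan-endothelial counts, per 100 actb1 and actb2 counts and per 1000 spike-in counts (linear axes from 0). Dots are libraries and lines the means of 2 libraries. Per pan-endothelial count marcksl1a stands at 49.8 in ventral and 45.9 in dorsal libraries and its sides overlap, while marcksl1b stands at 24.3 and 12.8, with no overlap.

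Markers of other cell types were measured beside the pair. Their part in the pair's values was not tested. Epidermal genes, 12 of 12 rows with a count, summed to 3856 and 1496 CPM in ventral 1 and 2, against 621 and 993 CPM in dorsal 1 and 2. Of the 12 rows 4 were tested, all 4 with a log2 fold above 0, against 46.1% of all genes. With scaling to the pan-endothelial sum 2 of the 4 were above 0, against 3.5% of all genes. Above 0 were 3 of the 4 with DESeq2, without ventral 1 and without dorsal 1, against 49.0%, 48.1% and 48.7% of all genes. None of the 4 passed edgeR's test, and 3 had an unadjusted p under 0.05, as had 7.51% of all genes with a higher ventral level. The keratin gene krt8 gave 86 and 38 counts in the ventral libraries, against 23 and 9 in the dorsal ones, or 1.76 ± 0.33 (SE) as log2 fold (adjusted p = 0.0609, edgeR). Its partner krt18a.1 gave 69 and 31 counts in the ventral libraries, against 21 and 4 in the dorsal ones, or 1.87 ± 0.39 (adjusted p = 0.0979, edgeR). For both keratins, picked by their p, each ventral library lay above each dorsal one in CPM. The share of all genes that do so was not counted. The third, pfn1, which the list holds as an epidermal gene, stood at 1.29 ± 0.45 (adjusted p = 0.302, edgeR). The fourth tested gene, epcam, gave 31 and 17 counts in the ventral libraries, against 13 and 22 in the dorsal ones. Its log2 fold was 0.08 ± 0.58 (unadjusted p = 0.896, edgeR), and in CPM it was highest in dorsal 2. Of the 8 rows that did not pass the expression filter, 7 were counted in ventral 1 alone, led by cyt1l and krt4 with 65 and 58 counts. Mural and mesenchymal genes, 7 of 11 rows with a count, summed to 1033 and 729 CPM in ventral libraries, against 328 and 195 CPM in dorsal ones. TAGLN, which is also on the actin list, was its largest part, at 544 and 654 CPM in ventral and 164 and 136 CPM in dorsal libraries. The next largest, twist1b, gave 26 and 0 counts in the ventral libraries, against 0 and 1 in the dorsal ones. The rows acta2 and PDGFRA gave 0 counts in all libraries. Myeloid genes summed to 101 and 25.1 CPM in ventral 1 and 2, against 17.3 and 428 CPM in dorsal 1 and 2. In dorsal 2 a single gene gave 17 of the 22 myeloid counts. Muscle genes summed to 46.1 and 50.3 CPM in the ventral libraries, against 25.9 and 77.9 CPM in the dorsal ones. No gene of the muscle and myeloid lists passed the expression filter.

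Neural tissue also expresses marcksl1 genes strongly. Of 23 neural rows 9 had a count, and their sum was 332 and 352 CPM in ventral 1 and 2, against 302 and 136 CPM in dorsal 1 and 2. The neuronal and glial genes ELAVL4, NEUROD1, neurog1, GFAP, GNG3 and SOX3 were at 0 in all libraries, and ELAVL3 gave 0 and 4 counts in the ventral libraries, against 3 and 0 in the dorsal ones. The neural row her4.1 gave 9 and 3 counts in the ventral libraries, against 2 and 0 in the dorsal ones. SOX2, SNAP25, FABP7, SOX1 and ZIC2 gave at most 1 count in any library. STMN1 and tubb5, which many dividing cells also express, held most of the neural sum. Red cell genes, 10 of 11 rows with a count, overlapped between the sides, with 35450 and 44953 CPM in the ventral libraries, against 36548 and 65303 CPM in the dorsal ones. That sum is dominated by globins at the ceiling of the counts. Of the 10 tested red cell genes 9 had a log2 fold below 0, while 46.1% of all genes were above 0. The 9 include these globins, whose counts lie near the ceiling in every library. The sign of the globin folds thus follows the library sizes and says nothing of their level. Above 0 were 69.8% and 76.3% of all genes under the 2 spike-in scalings, 48.7% without dorsal 1 and 52.4% without dorsal 2. Of the 10 red cell genes, 6 and 4 were below 0 under these scalings, 8 without dorsal 1 and 6 without dorsal 2. None passed edgeR's test, and 3 had an unadjusted p under 0.05, as had 4.65% of all genes with a lower ventral level. The 3 were the spectrin gene SPTB, at -0.61 ± 0.20 (SE), SLC4A1, the anion exchanger, at -0.40 ± 0.15, and klf1, an erythroid transcription factor, at -0.59 ± 0.25. Their adjusted p was 0.262, 0.318 and 0.367 in that test. In CPM both ventral libraries lay below both dorsal ones for each of the 3, which were picked by their p. How many of all genes do so was not counted.

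The founding members of the family were scarce. The table of names gives the symbol MARCKS to 2 rows and does not say which is marcksa and which marcksb. ENSDARG00000008803 gave 7 and 8 counts in the ventral libraries, against 5 and 4 in the dorsal ones. Its ratio of ventral to dorsal level was 1.48, and its counting interval ran from 0.608 to 3.84, so a difference was not detectable. ENSDARG00000004049 gave 3 and 3 counts in the ventral libraries, against 0 and 0 in the dorsal ones. Set against a floor of 3 counts summed over both dorsal libraries, and treating the ventral counts as free of error, it was at least 1.78-fold higher in ventral libraries. Its lower counting limit was 1.05. Neither row passed edgeR's expression filter.

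Of all counts of the MARCKS and MARCKSL1 rows, marcksl1a made up 61.2% and 62.5% in the ventral libraries, against 71.4% and 63.6% in the dorsal ones. The share of marcksl1b was 32.0% and 28.9% in ventral, against 19.6% and 18.2% in dorsal libraries. The MARCKS rows together held 6.8% and 8.59% in the ventral libraries, against 8.93% and 18.2% in the dorsal ones, the last on 4 of 22 counts. In every library the marcksl1 copies thus made up most of the family's counts.

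Adducins cap actin filaments and carry a stretch related to the MARCKS effector domain. The gene add2, whose product is part of the red cell membrane skeleton in mammals, gave 23 and 20 counts in the ventral libraries, against 47 and 18 in the dorsal ones. Its log2 fold was -0.73 ± 0.30 (SE) and did not pass edgeR's quasi-likelihood test (adjusted p = 0.353). Of the 2 rows named ADD3, ENSDARG00000040874 gave 15 counts in the ventral libraries, against 1 in the dorsal ones, 13.3 times the dorsal level (counting interval 2.05 to 562). ENSDARG00000056250 gave 2 and 1, and basp1, another protein of the membrane that binds PIP2, gave 0.

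Regulators of MARCKS proteins were tested with all other genes. Of the 18 matched rows of kinases, 8 had a count and only ROCK1, a kinase that acts on the actin cytoskeleton, was high enough to test. Its log2 fold was -0.49 ± 0.53 (SE), with an adjusted p of 0.851 by edgeR. Protein kinase C genes were near the floor. PRKCB gave 5 and 1 counts in the ventral libraries, against 4 and 0 in the dorsal ones, and PRKCI gave 1 and 2 in the ventral libraries, against 3 and 1 in the dorsal ones.

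Calmodulins, which compete for the effector domain, were well counted. Their genes encode the same protein, and reads they share cannot be traced, so the values of single calmodulin genes are uncertain. All 4 tested calmodulin genes had a log2 fold above 0, against 46.1% of all genes. With scaling to the pan-endothelial sum none of the 4 did, against 3.5% of all genes. None of the 4 passed edgeR's test, against 0.429% of all genes that did. CALM2 gave 40 and 43 counts in the ventral libraries, against 35 and 11 in the dorsal ones, or 0.76 ± 0.31 (SE) as log2 fold (adjusted p = 0.347, edgeR). The gene calm2a stood at 1.06 ± 0.45 (adjusted p = 0.361, edgeR), and both had an unadjusted p under 0.05, as had 7.51% of all genes with a higher and 4.65% with a lower ventral level. The most abundant, calm1a, stood at 0.06 ± 0.21 and calm3b at 0.21 ± 0.22, with adjusted p of 0.985 and 0.831 in the same test.

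N-myristoyltransferase attaches the fatty acid that MARCKS proteins need. The table names 2 rows NMT1. ENSDARG00000057206 gave 95 and 51 counts in the ventral libraries, against 131 and 44 in the dorsal ones, or -0.40 ± 0.21 (SE) as log2 fold (adjusted p = 0.524, edgeR). ENSDARG00000052966 stood at 0.83 ± 0.49 (adjusted p = 0.598, edgeR). Of the phosphatases that can remove the phosphate groups, PPP2CA stood at 0.05 ± 0.44 and the calcineurin subunit gene PPP3R1 at -0.21 ± 0.49, and neither passed. Of 27 rows of PIP2 metabolism, the kinases, phosphatases and phospholipases C that make or consume the lipid, 16 had a count. Summed, they stood at 637 and 465 CPM in the ventral libraries, against 604 and 389 CPM in the dorsal ones, and the sides overlapped. Over the lists of adducins, kinases, calmodulins, and transferases and phosphatases 0 of 10 tested genes passed in edgeR, in DESeq2 and in limma voom, and 2 were higher and 1 lower at an unadjusted p under 0.05 in edgeR, against 105 and 65 of the 1399 genes.

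Genes of actin monomers and filaments were the pathway list with calls. The 3 called genes were known from the earlier reading that also chose the pair. Of 53 matched rows 18 were tested, 14 had a log2 fold above 0 (2 with scaling to the pan-endothelial sum) and 3 rose in the ventral libraries. Over all genes 46.1% had a log2 fold above 0 (3.5% with that scaling) and 0.429% were called. The median log2 fold was 0.76, against -0.03 over all genes. The 3 were tpm4a (2.63 ± 0.38, SE), TAGLN (1.96 ± 0.29) and tmsb4x (1.36 ± 0.20), all at adjusted p = 0.0183 by edgeR. Tropomyosin tpm4a lines actin filaments, TAGLN cross-links them, and tmsb4x binds actin monomers. The level needed for testing was met by tpm4a in the ventral libraries only (387 and 428 CPM, against 69.0 and 58.4 CPM in the dorsal ones). With scaling to the pan-endothelial sum tpm4a stood at 1.15, TAGLN at 0.49 and tmsb4x at -0.09. All 3 calls ended without dorsal 1, that of TAGLN also without dorsal 2 (adjusted p = 0.0557, edgeR), while 6 list genes were called without ventral 2. DESeq2 and limma voom called none of the list. The actin-severing CFL1, at 0.80 ± 0.16, was next and did not pass (adjusted p = 0.072, edgeR).

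The genes whose profile over the 4 libraries was most like each paralogue were ranked by the Euclidean distance between log2 CPM values centred on their mean. With 4 libraries this is a description only. Closest to marcksl1a were tpm3, a tropomyosin, at a distance of 0.266, and rap1b, a small GTPase of cell adhesion, at 0.329. The early endothelial regulator etsrp stood at 0.331, TAGLN at 0.346 and the row ENSDARG00000026751 at 0.364. They were followed by her12, a Hairy-related repressor, at 0.365, the tetraspanin gene CD63 at 0.428 and ID1, an inhibitor of differentiation, at 0.434. Over all other genes the median distance from marcksl1a was 1.62.

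Closest to marcksl1b were tpm4a at 0.205 and CNN2, a calponin that binds actin, at 0.211. TAGLN followed at 0.296, GPR182, a receptor of endothelial cells, at 0.339, IRF2BP2 at 0.463 and her12 at 0.512. The paralogue marcksl1a came 7th from marcksl1b, at a distance of 0.63, while marcksl1b came 23rd from marcksl1a. The row ENSDARG00000026751 was the 8th, at 0.631. The median distance of all other genes from marcksl1b was 2.19. Of these genes CNN2 gave 22 and 19 counts in the ventral libraries, against 5 and 2 in the dorsal ones, and tpm3 gave 33 and 26 in the ventral libraries, against 16 and 5 in the dorsal ones. TAGLN, her12 and ENSDARG00000026751 stood among the nearest 8 of both copies.

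To see how copies of a gene compare elsewhere in the table, all symbols that differ only in a final a or b were paired where each had at least 20 counts. This gave 19 pairs, of which eif5a and eif5b encode different factors and are no copies of 1 gene. By the difference of log2 folds between the copies, taken from a fit without an expression filter, the marcksl1 pair was 5th of 19, at 0.79 against a median of 0.39. Above it stood plec, mcl1, capza1 and acin1. The plecb row was counted 19 and 4 times in ventral libraries and 0 times in dorsal ones, so its fitted fold depends on the prior count.

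In the pair of plectin, a linker of the cytoskeleton, the pleca row was counted 13 and 4 times in ventral and 3 and 0 times in dorsal libraries. The mcl1b gene, which blocks cell death, gave 2 and 3 counts in the ventral libraries, against 19 and 6 in the dorsal ones, while mcl1a gave 53 and 37 in the ventral libraries, against 56 and 28 in the dorsal ones. The actin capping gene capza1a gave 28 and 18 counts in the ventral libraries, against 106 and 6 in the dorsal ones, so its value turns on dorsal 1. The acin1 pair, of a splicing-associated nuclear protein, differed by 0.79. Just below the marcksl1 pair were atp5if1 (an inhibitor of the mitochondrial ATP synthase) at 0.62, npm1 (nucleophosmin) at 0.57 and the symbols eif5a and eif5b at 0.53.

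In 7 of the 19 pairs both log2 folds were above 0, and by the smaller of the 2 folds the marcksl1 pair came 2nd, after plec. In abundance the marcksl1 copies differed by 1.18 on the log2 scale, which is the median of the 19 pairs. The marcksl1 pair thus combined a usual ratio of copies with high folds of both, but it was chosen for those folds.

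**Figure D5:**
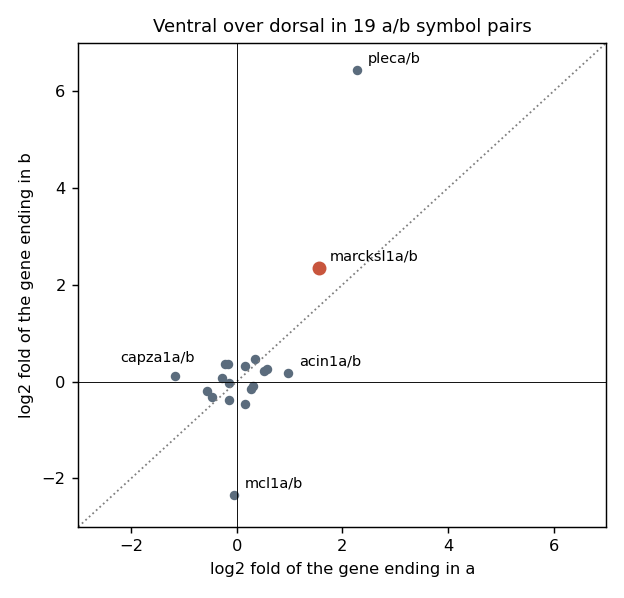
Log2 fold, ventral over dorsal, of the gene ending in b against that of the gene ending in a, for 19 pairs of symbols (fit without an expression filter). The dotted line marks equal folds. The marcksl1 pair lies at 1.56 and 2.35, with both folds high and 0.79 off the line in the direction of marcksl1b.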

How the data were processed

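RNA of 4 pooled libraries was sequenced by CEL-Seq with identifiers, per the labels' protocols. The submitters' processing notes list HTSeq 0.5.4p3, Bowtie2 2.1.0, CASAVA 1.8 and the genome build Zv9 without saying what each was used for. The authors deposited whole-number counts per Ensembl gene (32434 rows) and spike-in (92 rows). No label or header states whether reads or identifiers were counted. No gene or spike-in exceeds 1024 counts, the number of identifiers of 5 bases, and the values were read as identifier counts with that ceiling. The 5 rows that name no gene held 96.4% to 97.4% of each column and were left out. Reads shared by the paralogues cannot be traced, so their ratio is uncertain to that extent. Symbols came from a table of identifiers (20769 rows matched).

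Ventral and dorsal libraries were compared with edgeR 4.0.16 in R 4.3.3 (quasi-likelihood F test, TMM factors, edgeR's expression filter, Benjamini-Hochberg adjustment, 2-sided, threshold 0.05), checked on simulated data. That simulation gave all genes 1 dispersion. It called 34% of genes at a true log2 fold of 1 and 27.7% at -1, against 82% at 2 and 92% at -2. A 2-fold change was thus mostly missed. The SE is the log2 fold divided by the root of F. Alternatives used DESeq2 1.42.0, limma 3.58.1 voom, other scalings, no filter, a correction for repeated identifiers and left-out libraries. The genes, lists, rules and tests were chosen with earlier results of these data known. Named genes were the pair, the MARCKS family, called list genes, up to 4 genes per pathway list by p, the 8 nearest to each copy and the 3 symbol pairs on either side. Cell type lists are given by their sums and, except for the muscle and myeloid lists, by leading genes. Protein and promoter sequences were not used here, and 1 gene of the lists is not reported here.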

Additional observations from a re-analysis of the deposited data

How the results depend on the processing

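Both folds kept their sign under all 13 alternatives, and the difference between them stayed within 0.71 to 0.89. With pan-endothelial scaling, however, neither fold was resolved from 0 at 2 SE, at SEs of 0.40 for marcksl1a and 0.51 for marcksl1b. The same held for scaling to spike-ins under 500 counts, at an SE of 1.4 for each copy. With all spike-ins the fold of marcksl1a was not resolved from 0 either, at an SE of 1.24. Leaving out 1 library at a time gave log2 folds of 1.43 to 1.67 for marcksl1a and 2.32 to 2.38 for marcksl1b. Spike-in scaling gave 1.77 and 2.59, scaling to spike-ins under 500 counts, chosen after seeing the data, 1.88 and 2.71, and pan-endothelial scaling 0.077 and 0.86. The SE grew to between 1.22 and 1.4 with the spike-ins. The share of marcksl1b moved to between 31.6% and 34.3% in ventral and between 21.5% and 22.2% in dorsal libraries. The marcksl1 difference among symbol pairs stayed at 0.79 to 0.80, and the pair came 3rd of 14 where both copies had to pass the filter. Set among pairs of rows that share 1 symbol, added after the plan, it came 10th of 31.

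Calls were far less stable, and the numbers below pool both directions. Against 6 genes called, all higher in ventral libraries, DESeq2, limma voom and both spike-in scalings called 0 (58, 178, 20 and 13 at an unadjusted p under 0.05). Library size alone called 14, no filter 47, corrected counts 21 and pan-endothelial scaling, added after seeing the data, 1110. Of the 1110, 6 were higher and 1104 lower in ventral libraries, and of the 47, 43 were higher and 4 lower. Calls made without 1 library also fell in both directions. Leaving out 1 library gave 2 to 48 calls, 17 without ventral 1, 48 without ventral 2 and 2 without dorsal 1. Actin list calls went to 0 with DESeq2, limma voom and both spike-in scalings, 6 with corrected counts, 10 with pan-endothelial scaling and 0 to 6 without 1 library (6 without ventral 2, 0 without dorsal 1). The other pathway lists had 8 calls with pan-endothelial scaling, which lowers all genes. With it 16 of the 18 tested actin list genes had a log2 fold below 0, and 3.5% of all genes lay above 0. Cell type markers had 1 call (TAGLN), against 0 with DESeq2, limma voom and both spike-in scalings, 2 with library size alone, 8 with no filter, 3 with corrected counts, 12 with pan-endothelial scaling and 0 to 4 without 1 library (4 without ventral 2, 0 without either dorsal one). The cause of these changes was not tested. No paired analysis was run. The titles number the libraries in a series, but no label says which libraries, if any, belong together. Depth limits the dorsal values most, at 54 counts of marcksl1a and 15 of marcksl1b.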
